A study of Drosophila melanogaster with 27 samples.

Results

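The comparison asks whether Fmr1 pulled down each RNA equally in Ythdf mutant and wild type, relative to its level in the same lysate. For every gene, the log2 ratio of Fmr1 pull-down to input was taken in the Ythdf mutant, and the same ratio in the wild type was subtracted from it. A value of 0 means equal enrichment in both genotypes relative to the other RNAs, and a negative value means weaker relative enrichment in the mutant. Each library was scaled to its own size, so a change shared by all RNAs could not be seen. The members are the input and Fmr1 libraries, 18 of the 27 libraries in the series, and all 17807 genes listed, of which 10973 had enough counts to be tested.

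Fmr1 is the Drosophila orthologue of FMRP, whose loss in humans causes fragile X syndrome. It binds RNA, represses or activates translation of neuronal mRNAs and is known from fly brains for restraining axon and synapse growth. Ythdf is the cytoplasmic reader of N6-methyladenosine, a methyl mark that a nuclear writer complex puts on mRNA. An RNA immunoprecipitation measures how much of an RNA comes down with a protein, and dividing by the input sets aside how abundant the RNA was to begin with.

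Lysates were made from pooled heads of pupae of the stock w1118, used as wild type, and of flies with the genotype Ythdf#0/#0, labelled as the stock CG6422. The labels name the whole brain as tissue and give neither the age of the pupae nor the nature of the allele. Genotype and stock go together, so an effect of the Ythdf allele cannot be told apart from other differences between the stocks. There were 5 lysates of the wild type (numbers 1, 2, 3, 5 and 7) and 4 of the mutant (numbers 1, 2, 3 and 7), each split into an input and pull-downs with antibodies to endogenous Fmr1 or with mouse IgG. The protocol divides a lysate after lysis, and input and Fmr1 libraries with the same number deviated together within each genotype. The depth in gene counts was 5623123 to 13240187 for the inputs of the wild type, 9207492 to 15459370 for those of the mutant, 14843961 to 29699547 for wild-type pull-downs and 10726339 to 54195136 for mutant pull-downs. Levels below are TMM-scaled CPM, that is, counts relative to library size, and a gene passed when its p-value from edgeR's quasi-likelihood test, adjusted over all genes tested, was under 0.05.

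The inputs held head tissue beyond the brain. Neuronal nSyb averaged 1282 CPM in wild-type lysates against 933 in mutant lysates, the glial gene repo at 43.7 and 39.3 CPM, the rhodopsin gene ninaE at 4346 and 3396 CPM, and the muscle myosin gene Mhc at 9799 and 7995 CPM. Of 12 tissue markers 3 differed between the genotypes' inputs, where 9.32% of all genes did. The glial alrm fell by 0.65 (adjusted p = 0.018) and the neuronal Syt1 fell by 0.62 (adjusted p = 0.0313) on the log2 scale, while Lsp2, a storage protein gene of the fat body, rose by 2.03 (adjusted p = 0.0228). Fewer cells of a type and less RNA per cell cannot be told apart in such bulk samples. Ythdf mRNA, the check of the mutation, averaged 60.5 CPM in the inputs of the wild type and 32.4 CPM in those of the mutant, which is 53.5%. The gene overlaps CG31115 on the other strand. Each mutant input (28.9 to 35.2 CPM) lay below each wild-type input (54.6 to 67.2 CPM), and the log2 difference was −0.90 (exact permutation test, two-sided, p = 0.00794, the smallest that 126 splits allow). The enrichment of Ythdf mRNA itself did not pass the test of the difference, at −0.43 ± 0.33 (SE).

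The test of the difference was passed by 2 of 10973 genes (0.0182%), the phosphodiesterase gene Pde11 and the gene CG13022. Both were lower in the mutant (0.0182% lower), and no gene was higher (0%). At an unadjusted p under 0.05 there were 321 genes (2.93%), 240 of them lower (2.19%) and 81 higher (0.738%). With size factors of the RLE method this split was 183 lower and 117 higher. The split leaned the other way in 6 of 27 fits that left out 1 library or 1 lysate, with 123 lower and 173 higher without the input of wild-type lysate 7, 143 and 162 without the pull-down of lysate 5, 187 and 191 without the pull-down of lysate 7, and 180 and 217, 132 and 143, and 142 and 178 without wild-type lysates 3, 5 and 7. DESeq2 passed 11 genes, 8 lower and 3 higher, and limma voom passed 1. The ratios of the 5 wild-type and 4 mutant lysates did not overlap in 227 genes (2.07%), lower in the mutant in 168 and higher in 59. Most of these 227 genes did not pass the adjusted test, some with differences beyond 2-fold.

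For most genes the data set a limit on how large a change relative to the other genes could have been. The 95% interval of the difference lay wholly within a 2-fold change either way for 6984 genes (63.6%). Among the 7986 genes whose mean log2 CPM reached 2 this held for 6559 (82.1%), with a median SE of 0.26 on the log2 scale, while among the 2987 genes below that level it held for 425 (14.2%). In the middle 90% of the genes at the higher level the fitted difference ran from −0.44 to 0.34. For weakly expressed genes the interval mostly reached beyond a 2-fold change. At the higher level too a difference beyond 2-fold could fail the adjusted test, as in CG5910 (−1.04 ± 0.20, adjusted p = 0.168).

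The genotypes did differ widely in the libraries that make up the difference, and they did so in parallel. Mutant and wild type differed in 982 genes in the Fmr1 libraries (8.95%) and in 1023 genes in the inputs (9.32%). Of these, 598 passed in both in the same direction, which is 60.9% of the Fmr1 calls and 58.5% of the input calls, and 0 passed in opposite directions. Across the 10973 genes the log2 genotype effects in pull-downs and inputs had a Pearson r of 0.79 and a Spearman rho of 0.69. The pull-downs and inputs are different libraries of the same lysates, and genes are not independent replicates. The scatter of both effects shows the genes along the line of equal shift.

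**Figure D1:**
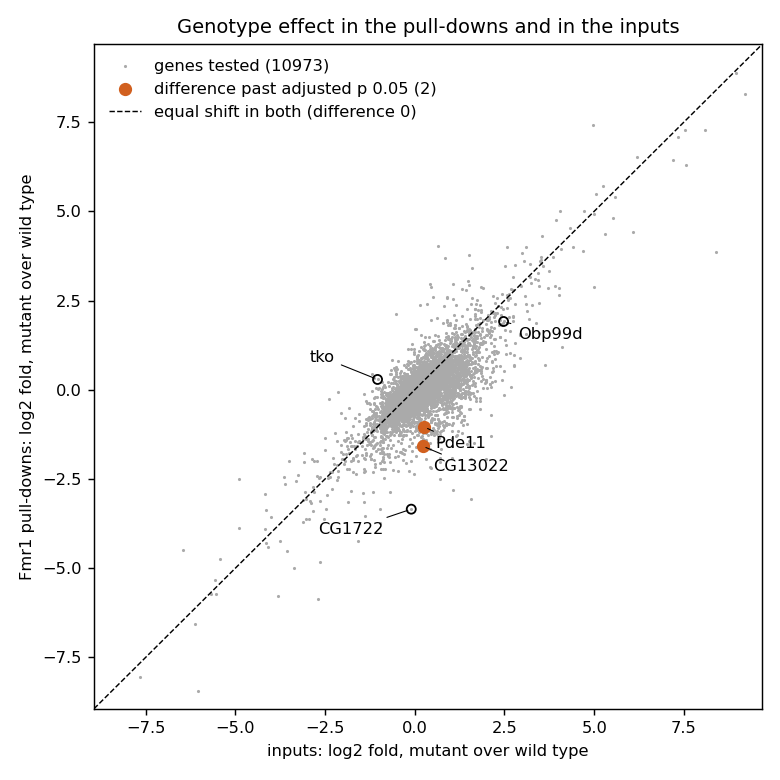
Each point is 1 of 10973 genes, with the log2 fold of mutant over wild type in the inputs on the x axis and in the Fmr1 pull-downs on the y axis. Most genes lie along the dashed line of equal shift, while Pde11 and CG13022, the 2 genes past the test of the difference, lie below it with a small shift in the inputs; 3 other genes described in the text are circled.

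Examples from the genes with the smallest p-values in the inputs show what the subtraction does. Obp99d, an odorant-binding protein gene, stood at 14.3 to 20.3 CPM in wild-type and 84.5 to 113 CPM in mutant inputs, and at 6.81 to 9.71 CPM against 28.1 to 33.6 CPM in the pull-downs. Mutant libraries were higher than all wild-type libraries of the same kind, by 2.47 in the inputs and 1.91 in the pull-downs on the log2 scale. The difference in enrichment was −0.56 ± 0.19 (unadjusted p = 0.0089, adjusted p = 1). CG31676 gave a closer match, with 2.58 in the inputs, 2.66 in the pull-downs and a difference of 0.08 ± 0.20. CG13073, the gene with the smallest p in the inputs, was at 0.86 to 1.62 CPM in wild-type inputs and had 5.52 in the inputs, 4.80 in the pull-downs and a difference of −0.72 ± 0.35 (unadjusted p = 0.0511).

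The profile of the Fmr1 pull-down over input was nearly the same in the genotypes. RNA that comes down with IgG as well was not subtracted from this ratio, and its part was not tested. In the wild type 6242 genes (56.9%) differed between pull-down and input, 3050 higher and 3192 lower, and in the mutant 5940 (54.1%), 2759 higher and 3181 lower. In 5243 genes the call and its direction were shared, 84.0% of the wild-type calls and 88.3% of the mutant calls. The slope of the mutant on the wild-type log2 enrichment was 1.00, with a Pearson r of 0.92 across genes. The standard deviation of the log2 ratios over the 5301 genes whose mean log2 CPM reached 4, a measure of how sharply the pull-down sorts RNAs, was 0.997 ± 0.114 (SD) over the wild-type lysates and 1.006 ± 0.171 over the mutant lysates (exact permutation test, two-sided, p = 0.944).

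A list of targets in each genotype would have looked more different than the test of the difference. There were 549 genes called higher over input in the wild type and not called in the mutant, and 1 of these, Pde11, passed the test of the difference. Of 260 genes called higher in the mutant and not in the wild type, 0 passed it. These 549 genes had a median difference of −0.28, those 260 a median of 0.29, and the 2499 genes called higher in both a median of 0.01. The way the 549 and 260 genes were chosen fixes the direction of their medians. Calls in opposite directions occurred in 2 genes, CG1722 and CG13022, each higher over input in the wild type and lower in the mutant. In wild-type libraries CG1722 stood at 2.31 to 7.98 CPM in Fmr1 pull-downs and 12.5 to 59.9 CPM with IgG. CG13022 stood at 7.93 to 10.9 CPM and 4.8 to 24.6 CPM, so neither was above its IgG range.

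Long mRNAs were pulled down more in both genotypes, and the difference between genotypes did not follow length. Over 7758 protein-coding genes the Spearman rho of log2 enrichment with exonic length was 0.70 in the wild type and 0.71 in the mutant, while that of the difference was 0.03. In the 1552 shortest of these genes the median enrichment was −0.98 in the wild type and −1.02 in the mutant, and in the 1552 longest it was 0.77 and 0.80. Over 5 bins of length the median difference stayed between −0.02 and 0.01.

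Pde11 had the smallest p-value of all genes. It encodes a phosphodiesterase, an enzyme that breaks down cyclic nucleotides and so ends their signal. Its input level was 153, 134, 150, 146 and 123 CPM in wild-type lysates 1, 2, 3, 5 and 7, and 155, 173, 168 and 183 CPM in mutant lysates 1, 2, 3 and 7. In the Fmr1 libraries it was 461, 449, 394, 431 and 424 CPM in wild-type lysates and 153, 224, 229 and 233 CPM in mutant lysates. Every wild-type pull-down was well above every mutant pull-down, whereas every mutant input was above every wild-type input.

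The log2 ratio of Fmr1 to input for Pde11 was 1.59, 1.74, 1.39, 1.56 and 1.78 in the wild-type lysates and −0.03, 0.37, 0.44 and 0.35 in the mutant lysates. The ranges did not overlap, and mutant lysate 1 was the lowest. Pde11 was thus 3.06-fold enriched over input in the wild type (log2 1.61 ± 0.11 SE, adjusted p = 1.2e-08) and 1.23-fold in the mutant (0.30 ± 0.13, adjusted p = 0.053). The difference was −1.31 ± 0.17 (95% interval −1.67 to −0.95, adjusted p = 0.00536), a fall of the enrichment to 0.404 of that in the wild type. In the pull-downs alone Pde11 fell by 1.04 (adjusted p = 1.97e-05), and in the inputs its log2 shift was 0.27 (adjusted p = 0.186). Leaving out wild-type lysate 2 or 7 put its adjusted p at 0.0534 and 0.0796, with differences of −1.29 and −1.18.

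The IgG libraries give the background of Pde11. It stood at 135 to 223 CPM in wild-type and 163 to 235 CPM in mutant IgG libraries, overlapping ranges. As a share of the library, Pde11 in mutant pull-downs was near its IgG level, and in wild-type pull-downs above it. IgG levels were scaled together with all 27 libraries, and equal shares do not mean equal amounts of RNA. Measured over IgG in place of input the difference was −1.13 ± 0.22 (adjusted p = 0.0634 over 11469 genes), in the same direction. No gene passed in that comparison, in which 504 had an unadjusted p under 0.05. It shares the Fmr1 libraries with the comparison over input.

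The other cyclic nucleotide phosphodiesterases gave no such value. The log2 differences were 0.35 ± 0.29 for dnc, the phosphodiesterase gene known from the learning mutant dunce, 0.25 ± 0.32 for Pde1c, 0.10 ± 0.21 for Pde6, 0.07 ± 0.20 for Pde8 and 0.18 ± 0.23 for Pde9. All 5 passed as enriched over input in both genotypes, from 0.58 to 1.03 in the wild type and from 0.93 to 1.27 in the mutant on the log2 scale. Among the 24 tested genes of cyclic nucleotide signalling, which also hold cyclases and kinases, Pde11 alone passed (0.0182% of all genes did), 7 were below 0 and the median was 0.14, against −0.04 over all genes. The next smallest p in that list belonged to Ac3, an adenylyl cyclase gene, at −0.58 ± 0.29 (unadjusted p = 0.0612).

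**Figure D2:**
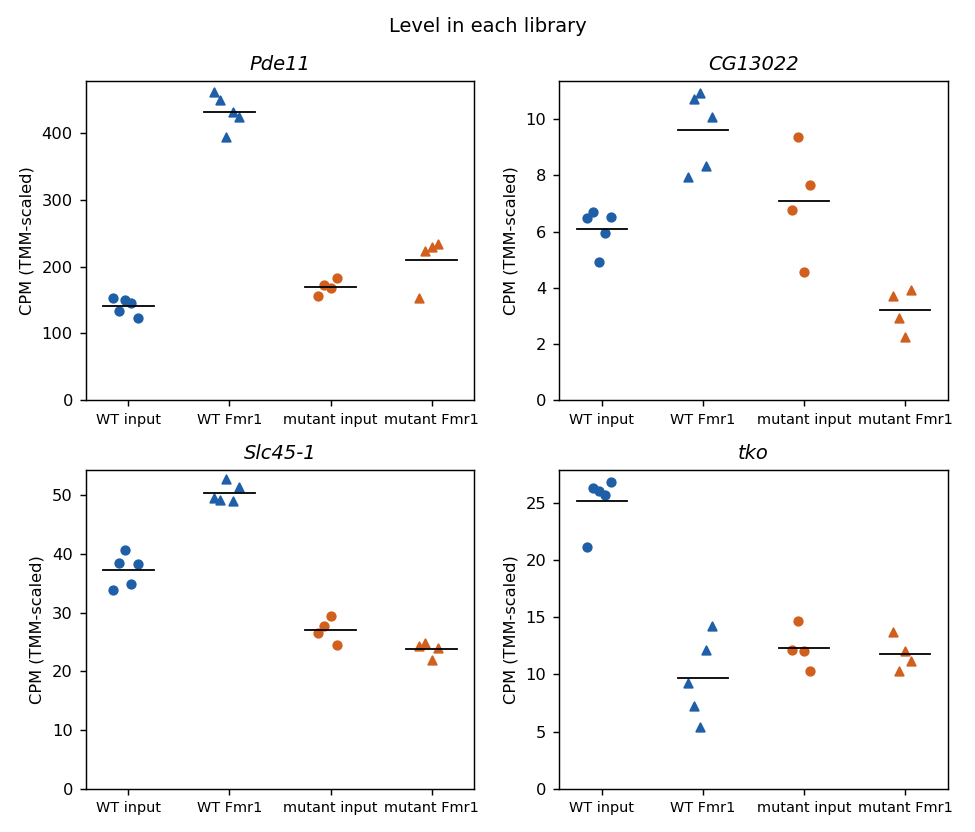
Level of 4 genes in each library, in TMM-scaled CPM, with circles for inputs, triangles for Fmr1 pull-downs and a bar at the group mean. Pde11 and CG13022 were low in mutant pull-downs with inputs near the wild type, Slc45-1 was lower in both kinds of mutant library, and tko was lower in mutant inputs with overlapping pull-downs.

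CG13022, a gene known by its number only, passed with less room. Its level was 6.47, 6.71, 4.90, 5.95 and 6.50 CPM in wild-type inputs and 6.77, 9.38, 4.56 and 7.65 CPM in mutant inputs. In the pull-downs it was 7.93, 10.7, 10.9, 8.33 and 10.1 CPM in the wild type against 3.69, 2.92, 2.25 and 3.93 CPM in the mutant, again without overlap. Its log2 ratios spanned 0.29 to 1.14 in wild-type lysates and −1.64 to −0.85 in mutant lysates. The difference was −1.79 ± 0.29 (adjusted p = 0.0352), made of −1.58 in the pull-downs (adjusted p = 6.02e-05) and 0.22 in the inputs (adjusted p = 0.552). The call of CG13022 held in 3 of 27 fits that left out 1 library or 1 lysate, with adjusted p-values up to 0.35. The CG13022 difference also did not pass with limma voom (adjusted p = 0.0691) or in a fit that included the IgG libraries (adjusted p = 0.504). Over IgG the difference was −0.38 ± 0.50, and CG13022 stood at 4.8 to 24.6 CPM in wild-type and 3.23 to 6.58 CPM in mutant IgG libraries. The 4.8 CPM is the level of a single read in the shallowest IgG library, of 196933 counts.

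Among coding genes lower in the mutant whose mean log2 CPM reached 2, the next smallest p-values belonged to CG5910, Slc45-1 and RpL26, none of which passed. Slc45-1 encodes a sugar transporter of the SLC45 family. It was at 33.9 to 40.7 CPM in wild-type and 24.5 to 29.4 CPM in mutant inputs, and at 49.0 to 52.8 CPM against 22 to 24.8 CPM in the pull-downs. Both kinds of mutant library were lower without overlap, the pull-downs by more, and the difference was −0.62 ± 0.13 (adjusted p = 0.28). CG5910, which overlaps CG5199 on the other strand, gave log2 ratios of 0.41 to 1.10 in wild-type and −0.71 to −0.14 in mutant lysates, with a difference of −1.04 ± 0.20 (adjusted p = 0.168). RpL26, a protein of the large ribosomal subunit, was depleted in both genotypes, with ratios of −1.66 to −1.25 and −2.54 to −2.02 and a difference of −0.82 ± 0.18 (adjusted p = 0.335). DESeq2 passed these 3 genes, with adjusted p-values of 0.00582 for CG5910, 0.00262 for Slc45-1 and 0.0173 for RpL26.

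In the other direction, 4 of the 5 coding genes with the smallest p-values above the same level fell in the mutant inputs, and none of the 5 passed in the pull-downs. tko encodes a protein of the small mitochondrial ribosomal subunit. Its inputs held 21.2, 26.3, 26.0, 25.6 and 26.8 CPM in the wild type and 10.3 to 14.6 CPM in the mutant, and its pull-downs 5.43 to 14.2 CPM and 10.3 to 13.7 CPM. The inputs were apart and the pull-downs overlapped. Its difference was 1.33 ± 0.30 (adjusted p = 0.394), of which −1.04 lay in the inputs (adjusted p = 0.00398) and 0.29 in the pull-downs. Vha36-3, a subunit gene of the vacuolar proton pump, had a difference of 0.97 ± 0.23 (adjusted p = 0.416) with −0.76 in the inputs. The genes CG13051, CG10953 and CG13067, known by their numbers only, had differences of 1.65 ± 0.39, 1.15 ± 0.31 and 1.17 ± 0.32, with adjusted p-values of 0.425, 0.883 and 0.894. All 3 were strongly depleted from the pull-downs of both genotypes. DESeq2 passed tko (adjusted p = 0.0112), Vha36-3 (0.0208) and CG13051 (0.0257).

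**Figure D3:**
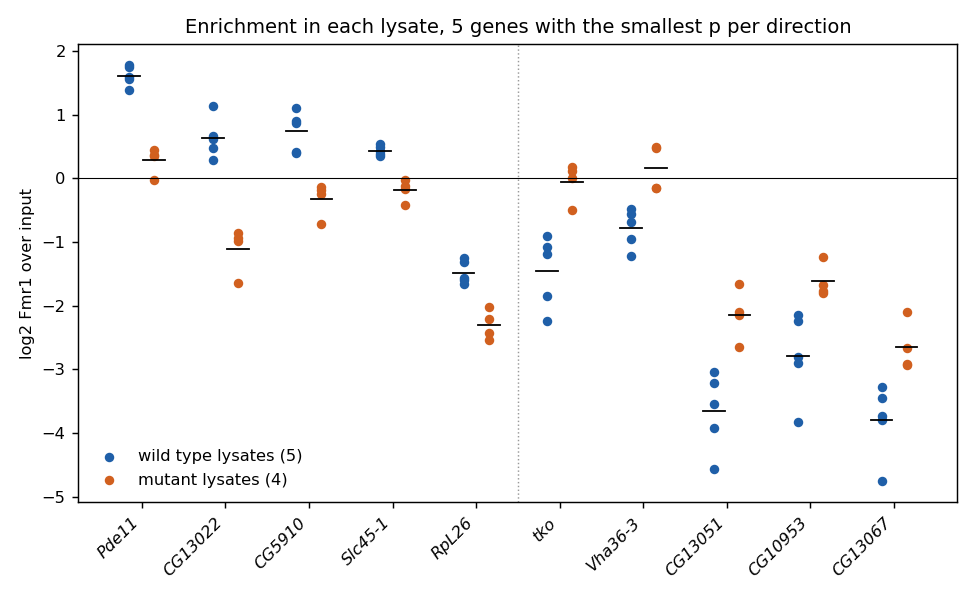
Log2 ratio of Fmr1 to input in each lysate for the 5 coding genes with the smallest p in each direction among those whose mean log2 CPM reached 2, lower on the left and higher on the right of the dotted line, with a bar at the mean. The wild-type and mutant points do not overlap for any of the 10 genes, which a choice by the smallest p favours. Pde11 and CG13022 passed the test.

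A further 3 genes outside the naming rule, chosen after their values were seen, passed in some other fits. CG1722 and Or71a lay below the level that the rule asks for, with unadjusted p-values of 4.33e-05 and 7.65e-05 that were smaller than that of Slc45-1 (0.000153). CG1722, at 1.29 to 3.46 CPM in wild-type inputs, had log2 ratios of 0.52 to 1.37 against −2.54 to −0.92 in the mutant, and a difference of −3.25 ± 0.61 (adjusted p = 0.158). With the lysate as a block, pairing input and pull-down of the same number, its adjusted p was 0.038. Or71a, an odorant receptor gene, had a difference of −1.81 ± 0.36 (adjusted p = 0.168). CG1722 overlaps Mnr and Or71a overlaps Plp on the same strand, so their reads are uncertain. CG18302 had a difference of −1.34 ± 0.33 (adjusted p = 0.55) and ratios of −0.88 to 0.41 and −1.68 to −1.18. In wild-type IgG libraries CG1722 stood at 12.5 to 59.9 CPM and Or71a at 4.8 to 18.9 CPM, against 1.61 to 12.4 and 1.55 to 11.3 CPM in the mutant. The 4.8 CPM of Or71a is again a single read in the shallowest IgG library.

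For mRNAs described before as Fmr1 targets no difference in enrichment was detected. Of 20 such mRNAs 0 passed, against 0.0182% of all genes, 11 lay below 0, the median was −0.02, and the 95% interval lay within a 2-fold change for 17. futsch, which encodes a microtubule-associated protein and is the classic Fmr1 target at the fly synapse, had ratios of 0.80, 1.62, 1.55, 1.16 and 1.39 in the wild type and 0.94, 1.51, 1.78 and 1.44 in the mutant. The ranges overlapped almost fully, and the difference was 0.12 ± 0.29 (95% interval −0.48 to 0.73). chic, which encodes the actin-binding protein profilin, had a difference of 0.19 ± 0.27 (−0.38 to 0.75), and the small GTPase gene Rac1 one of 0.23 ± 0.21 (−0.22 to 0.67). chic and Rac1 were lower in the pull-down than in the input in both genotypes. Pak, a kinase gene that acts downstream of Rac, had the smallest p of the list, at −0.54 ± 0.27 (unadjusted p = 0.0592). The mRNA of Fmr1 itself had ratios of 0.17 to 0.78 in wild-type and 0.48 to 0.90 in mutant lysates, and a difference of 0.29 ± 0.17 (−0.07 to 0.64).

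None of the 9 mRNAs of the m6A pathway passed (0.0182% of all genes did). None had an unadjusted p under 0.05, 7 lay below 0, the median was −0.09, and the 95% interval lay within a 2-fold change for 6. For the catalytic writer subunits Mettl3 and Mettl14 the differences were −0.16 ± 0.33 and −0.24 ± 0.29. For the other writer components they were −0.20 ± 0.22 for fl(2)d, 0.24 ± 0.27 for vir, −0.09 ± 0.22 for nito, 0.22 ± 0.52 for Flacc and −0.04 ± 0.48 for Hakai. The nuclear reader gene Ythdc1 had a difference of −0.00 ± 0.42, with ratios of −0.13 to 1.42 in wild-type and −0.43 to 1.29 in mutant lysates. Its ratios were highest in lysates 2 and 3 of each genotype (0.97 to 1.42), against −0.43 to 0.21 in the others. The labels do not say what sets those numbers apart.

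In lysates 2 and 3 alone the difference of Pde11 was −1.01, and in lysates 1, 5 and 7 alone it was −1.38. Neither subset passed any gene, with 2 mutant lysates in each. At an unadjusted p under 0.05 there were 1053 genes in lysates 2 and 3, 276 lower and 777 higher, and 248 in lysates 1, 5 and 7, 123 lower and 125 higher. Over all lysates these were 240 lower and 81 higher. With the set of lysates as a term for each kind of library, 5 genes passed, Pde11, CG13022, CG5910 and Or71a lower and tko higher.

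Outside Pde11, none of the 37 gene lists had a member that passed. They cover 1531 tested genes, 1 of which passed, and the lists are described by their medians beside the −0.04 of all genes. Leaving out 1 library or lysate moved the median of all genes between −0.05 and 0.06, so that list medians this close to 0 carry no direction.

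The lists of neuronal mRNAs had medians above that of all genes, a description that was not tested. In the list of synaptic vesicle and active zone genes 0 of 39 passed, 7 lay below 0 and the median was 0.20. In that list Synj, the phosphatase synaptojanin of vesicle recycling, had 0.29 ± 0.13 (unadjusted p = 0.0431) and Rab3, a vesicle GTPase, 0.34 ± 0.21. Of 20 neuron markers 0 passed and 4 lay below 0, with a median of 0.19, with Syn, the vesicle protein synapsin, at 0.31 ± 0.23 and Tdc2, an enzyme of tyramine and octopamine synthesis, at 0.50 ± 0.35. In the mutant these markers summed to 7665 to 8157 CPM in the inputs against 8726 to 11477 CPM in the wild type, without overlap, and to overlapping levels in the pull-downs, 11156 to 16263 against 13749 to 19607 CPM. The part of neuronal RNA content in these medians was not tested. In lysates 2 and 3 alone the median of neuron markers was 0.16 and that of channels 0.087, beside 0.11 over all genes. The per-lysate medians of neuron markers overlapped, from 0.21 to 0.95 for wild-type and from 0.36 to 1.05 for mutant lysates.

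Receptors and channels gave 0 passing members as well. Of 43 neurotransmitter receptors the median was 0.09, and the smallest p belonged to the muscarinic receptor gene mAChR-A. That gene, which overlaps CG13578 on the other strand, fell in the mutant inputs, from 61.7 to 87.5 CPM to 30.1 to 31.8 CPM (log2 −1.31, adjusted p = 2.5e-07), and in the pull-downs, from 111 to 131 CPM to 63.2 to 80.1 CPM (−0.81, adjusted p = 6.83e-05). Its ratios were 0.45 to 0.84 and 1.07 to 1.33, without overlap, and its difference of 0.50 ± 0.15 did not pass (unadjusted p = 0.00351, adjusted p = 1). Of 26 channels the median was 0.04, with the hyperpolarisation-activated channel gene Ih at 0.47 ± 0.21. Neuropeptide precursors had a median of 0.21 over 34 genes, 13 of which had an interval within a 2-fold change, with Ms at 0.50 ± 0.30 and Dh31 at 0.50 ± 0.31.

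Lists of growth, cytoskeleton and adhesion genes had medians between −0.15 and 0.06. Of 45 axon guidance and growth genes 0 passed, 21 lay below 0 and the median was 0.01, and for 42 of them the interval lay within a 2-fold change. The semaphorin gene Sema1b had −0.27 ± 0.13 (unadjusted p = 0.0609). The median was 0.01 for 37 actin genes, 0.06 for 23 genes of microtubules and motors, and −0.03 for 29 adhesion genes, among which ft, the large cadherin Fat, had −0.54 ± 0.21 (unadjusted p = 0.0212). Of 18 genes of the BMP pathway at the synapse the median was −0.01, and spin, a lysosomal transporter known to limit synapse growth, had −0.39 ± 0.13 with ratios of 0.91 to 1.28 and 0.65 to 0.68 (unadjusted p = 0.00664). Of 25 genes of TOR and growth signalling 21 lay below 0, with a median of −0.15, with the kinase gene Pdk1 at −0.35 ± 0.25 and Pi3K21B, the regulatory subunit of the lipid kinase, at −0.37 ± 0.27. None of these passed.

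Genes of the translation machinery and nuclear genes for mitochondrial proteins were close to the other genes. The 82 cytosolic ribosomal protein mRNAs had median enrichments of −2.14 and −2.24 and a median difference of −0.11, with 61 below 0. RpL35A had −0.40 ± 0.22. The 38 translation factors had a median of −0.01, the 71 mitochondrial ribosomal proteins −0.02, the 70 nuclear-encoded genes of oxidative phosphorylation 0.06, with Cyt-c1 of complex III at 0.37 ± 0.15 (unadjusted p = 0.021). The 16 subunits of the vacuolar proton pump had a median of 0.10, with VhaAC39-1 at 0.37 ± 0.14 (unadjusted p = 0.0148). The 26 transcripts of the mitochondrial genome had a median of 0.44, which was −0.47 without the Fmr1 library of mutant lysate 3, and none had an interval within a 2-fold change.

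**Figure D4:**
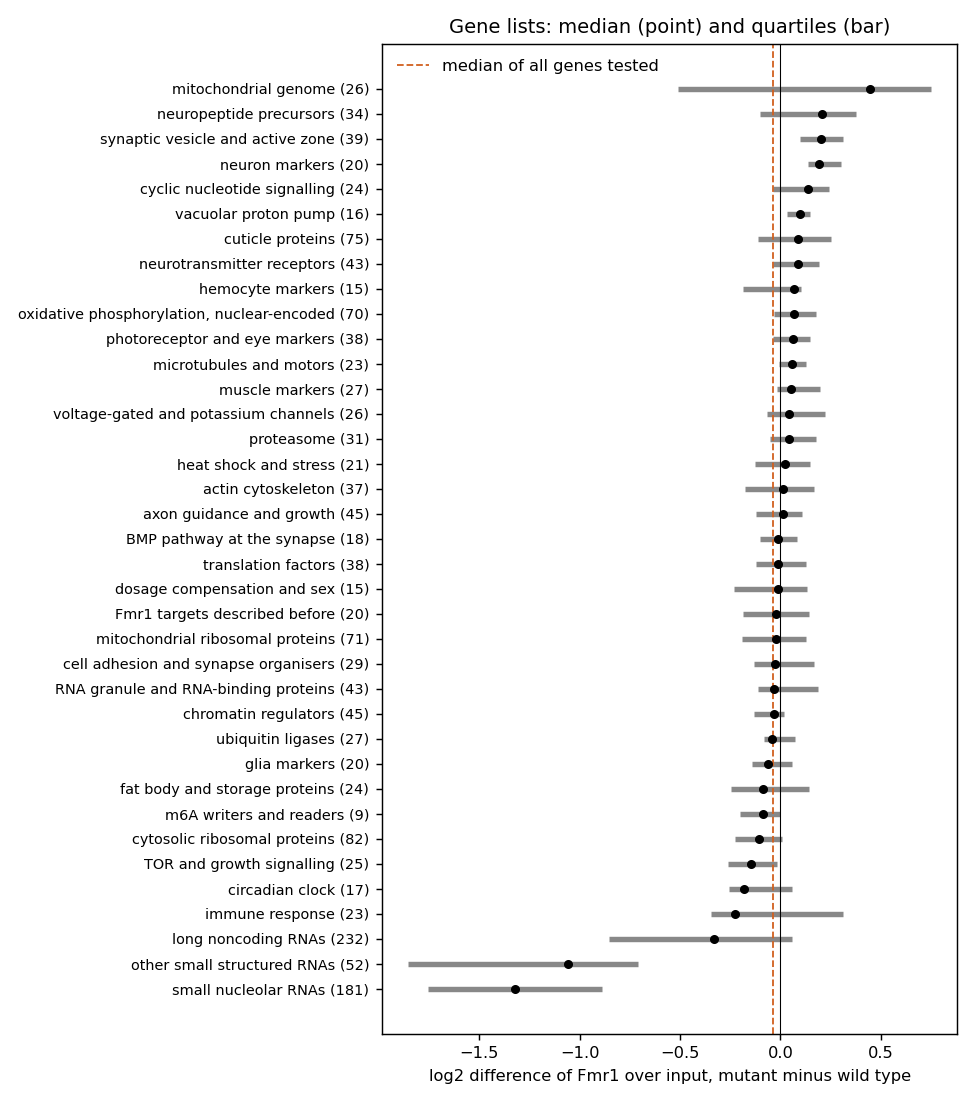
Median (point) and quartiles (bar) of the log2 difference in Fmr1-over-input enrichment, mutant minus wild type, for 37 gene lists with the number of genes tested in parentheses; the dashed line is the median of all genes, −0.04. Small nucleolar RNAs, other small structured RNAs and long noncoding RNAs stand lowest, and the lists of protein-coding genes lie close to the dashed line.

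Markers of the other cell types in the head were near 0. The medians were −0.06 for 20 glia markers, 0.06 for 38 photoreceptor and eye genes, with the rhodopsin gene Rh3 at 0.40 ± 0.20, 0.05 for 27 muscle genes, with the actin gene Act87E at 0.35 ± 0.20, −0.09 for 24 fat body genes and 0.07 for 15 hemocyte genes. In the hemocyte list PPO1, a prophenoloxidase gene of melanisation that overlaps Elk on the other strand, had −1.12 ± 0.36 (unadjusted p = 0.00612). Immune response genes had a median of −0.23 over 23, which was −0.98 without the Fmr1 library and 0.26 without the input of mutant lysate 7, with the transcription factor gene dl at −0.34 ± 0.16. Chromatin regulators had a median of −0.03 over 45, with dre4, a subunit of the histone chaperone FACT, at −0.43 ± 0.19. In the dosage compensation list msl-2, a subunit of the complex that upregulates the male X chromosome, had 0.44 ± 0.17. None of these passed.

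The largest shifts of whole groups were in small structured RNAs, again with no member that passed. Small nucleolar RNAs guide the modification of ribosomal RNA in the nucleolus, away from the cytoplasm where most Fmr1 is found. Of 181 tested, 173 lay below 0 and the median difference was −1.32, with 37 at an unadjusted p under 0.05, all lower (20.4%, against 2.19% of all genes), and no interval within a 2-fold change. They were depleted from the pull-downs of both genotypes, with median log2 enrichments of −3.25 and −4.51. Their median shift was 0.78 in the inputs and −0.54 in the pull-downs, mutant over wild type. The filter on low counts could be met by the inputs alone, and some members had almost no counts in mutant pull-downs. Entry through the mutant inputs favours differences below 0, and its part was not tested. The medians per lysate were −2.01, −3.37, −3.66, −1.74 and −2.45 in the wild type and −4.06, −4.44, −4.32 and −3.15 in the mutant. The ranges overlapped, since wild-type lysates 2 and 3 reached below mutant lysate 7. Between lysates of the same number the mutant was the lower in 4 of 4, though the labels do not say that a number is shared between genotypes. The median difference was −0.79 in lysates 2 and 3 alone and −1.66 in lysates 1, 5 and 7 alone, and −0.73 without wild-type lysate 5.

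Single examples were variable. snoRNA:Psi28S-3305c lies within Hrb98DE and was at 16.6 to 99.7 CPM in wild-type and 48.0 to 102 CPM in mutant inputs. Its difference was −1.78 ± 0.61 (adjusted p = 1). snoRNA:Or-aca5, which lies within Uhg4, had −2.01 ± 0.74, and the RNA of RNase P, the enzyme that trims tRNA precursors (RNaseP:RNA, within ATPsynC), −0.78 ± 0.26. Other small structured RNAs, which include small nuclear RNAs and tRNAs, had a median of −1.06 over 52 genes, 46 of them below 0, which was −0.44 in lysates 2 and 3 alone and −1.60 in lysates 1, 5 and 7 alone. The summed level of the small nucleolar RNAs ran from 1926 to 6344 CPM in wild-type and 3331 to 6248 CPM in mutant inputs. In the pull-downs it was 225 to 613 CPM for the wild type and 209 to 404 CPM for the mutant.

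Antisense and long noncoding RNAs lay below 0 too. Antisense RNAs, a group taken from the gene names after values were seen, had a median of −0.83 over 286 genes, 260 of them below 0, none past the test. The median over all genes was −0.04. The median shift of antisense RNAs was 1.02 in the inputs and 0.14 in the pull-downs. The filter on low counts could be met by the mutant inputs alone, which favours differences below 0, and its part was not tested. In the inputs 27 passed as higher (9.44%, against 4.99% of all genes) and 2 as lower (0.699%, against 4.33%). Reads in no annotated gene moved with them. As a share of these reads and the gene counts together, they were 18.6% to 28.3% in mutant inputs and 9.61% to 20.6% in wild-type inputs. In the pull-downs the share was 5.34% to 17.8% for the mutant and 9.44% to 14.6% for the wild type. Other entries for reads without a gene are not in this share. The summed antisense level was 717 to 1301 CPM in mutant inputs, against 305 to 759 CPM in wild-type inputs. Their part in the result was not tested. The labels describe a strand-specific kit but not the strand used in counting, so reads of a gene and of its antisense partner may not be told apart.

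Long noncoding RNAs had a median of −0.33 over 232 genes, with 1 higher and 15 lower at an unadjusted p under 0.05 (0.738% and 2.19% of all genes were). The median was −0.25 in lysates 2 and 3 alone, −0.12 in lysates 1, 5 and 7 alone, and −0.037 without the Fmr1 library of wild-type lysate 5. The values ranged widely, from lncRNA:noe, within blot, at 0.76 ± 0.32 and lncRNA:CR43242 at 0.31 ± 0.25 to lncRNA:roX2, an RNA of the dosage compensation complex, at −1.29 ± 0.65. Its ratios spanned −5.62 to −1.99 in wild-type and −5.54 to −4.03 in mutant lysates. Protein-coding genes as a whole had a median difference of −0.02 over 10078 genes, and both genes that passed belong to them.

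**Figure D5:**
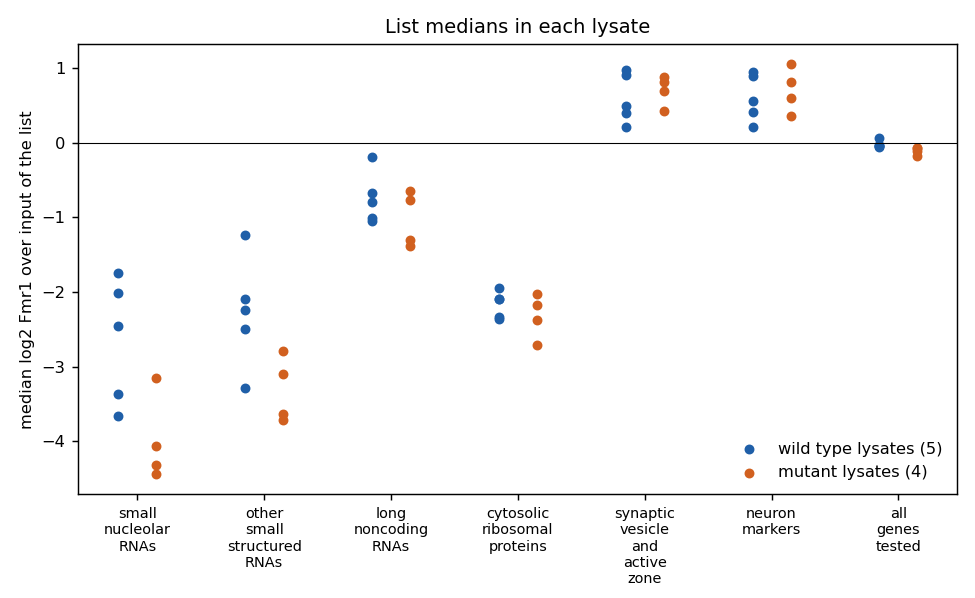
Median log2 ratio of Fmr1 to input of 6 gene lists and of all genes tested, with 1 point per lysate. The mutant lysates are on the low side for small nucleolar RNAs but overlap with the wild type (−4.44 to −3.15 against −3.66 to −1.74), and the genotypes overlap for each of the 6 lists, while the medians of all genes, which depend on the scaling, do not overlap (−0.063 to 0.062 for wild-type, −0.173 to −0.065 for mutant lysates).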

How the data were processed

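Counts of reads per gene in 18 of 27 libraries were used, 9 inputs and 9 Fmr1 pull-downs, as deposited by the authors as raw counts. Per the submitters' processing notes, bcl2fastq 2.20, Trim Galore and STAR were used. The counting strand, the use of the molecular barcodes that the labels mention, and the genome build are not given in the sources used here, so no position is printed. Entries for reads without a gene, 23.8% to 63.4% of a library, were left out.

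With R 4.3.3 and edgeR 4.0.16, filterByExpr at a minimum count of 10 and a minimum total of 15 removed 6834 genes. After TMM scaling, the quasi-likelihood model was fitted with robust settings to 4 groups (biological coefficient of variation 0.263). IgG libraries, in no term of the difference and with 196933 to 5879253 counts, entered an alternative. Fold changes are the model's log2 values with SE, and p-values were adjusted with the Benjamini-Hochberg method over all genes. Ratios per lysate are differences of log2 CPM with a prior count of 2. Correlations of same-numbered input and pull-down deviations were 0.186 to 0.48 over the wild-type lysates and 0.121 to 0.506 over the mutant lysates. Between genotypes, where lysates differ, the correlations were 0.302 to 0.655 for pull-downs and 0.0582 to 0.361 for inputs. For inputs not every pair was above 0.1. Such values cannot show that libraries share a lysate, so the pairing within a genotype rests on the protocol. The labels do not say that a number is shared between genotypes, so a block over genotypes was an alternative only. The labels call the replicates biological. Many named genes overlap another annotated gene, among them futsch, dnc, Pde1c, Pde6 and Pde9, so their counts are less certain.

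Symbols were found for 17710 of 17807 identifiers. Biotypes, lengths and overlaps came from the Ensembl annotation of BDGP6.54. The 37 lists hold 917 entries, 20 of them name prefixes, and 36 were not found. The members and lists were chosen with earlier results of these data known. Named genes were the 5 coding genes with the smallest p in each direction whose mean log2 CPM reached 2. Had 5 or more passed without overlap of their ratios, the 12 with the largest change would have been taken. Up to 3 noncoding genes per direction and up to 2 members per list with the smallest p were named too. The m6A list with Ythdf, Fmr1, chic, Rac1 and futsch was always named. The rule and additions give more genes than the 64 named. List members left out were chosen after values were seen. The fit was also run on simulated counts drawn independently per library. These had no shared lysates, so they do not check the unpaired model on these data. Alternatives were other scalings, filters, DESeq2 1.42.0, limma 3.58.1 voom, blocks, subsets and left-out libraries.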

Additional observations from a re-analysis of the deposited data

Results flagged for a closer look

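The enrichment over input differed between genotypes by the test of the difference for Pde11 (−1.31) and CG13022 (−1.79), as described above.

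A single lysate stood far from the others of its genotype in 6 of 206 groups of ratios, list medians and spreads checked, where chance alone gives about 1 in 20. Mutant lysate 2 had the lowest ratio of CG13022 (−1.64). Mutant lysate 7 had the lowest ratio of Cyt-c1 (−0.84). Wild-type lysate 1 had the lowest ratio of Synj (0.31) and the highest median of all genes tested (0.062). Wild-type lysate 7 had the lowest ratio of Pi3K21B (0.070) and the highest median of hemocyte markers (0.70).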

How the results depend on the processing

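Pde11 passed in 37 of 42 fits, the reported one included, and CG13022 in 13. The 2 genes of the reported fit became 11 with DESeq2 (8 lower, 3 higher), 1 with limma voom, 1 with all 27 libraries, 5 with the set of lysates as a term (4 lower, 1 higher), and 0 in lysates 2 and 3 alone, in lysates 1, 5 and 7 alone, and against a log2 threshold of 0.5 (125 at an unadjusted p under 0.05). With the replicate block within genotype, which pairs input and pull-down, 3 passed, all lower; with a replicate block shared by genotypes 4 passed, and 4 with that block for each kind of library, which like the set term was added after seeing the data. Leaving out 1 library or lysate gave 0 to 3 genes, all lower, with 0 without wild-type lysate 2 or 7. Other scalings and filters left Pde11 and CG13022 as the only calls. With 27 libraries the genotype passed in 633 genes in the pull-downs and 652 in the inputs, and leaving out 1 library gave 705 to 1360 and 603 to 1170. The cause was not tested. DESeq2 also passed GM130, which was not named by the rule.

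Differences near 0 changed sign. The Ythdc1 difference was 0.052 with RLE, 0.033 with upper-quartile factors, 0.043 with the stricter filter, 0.055 with DESeq2, 0.021 with 27 libraries, 0.00295 with the shared replicate block and 0.00145 in lysates 2 and 3 alone. The Hakai difference was 0.00825 with RLE, 0.00611 with the stricter filter, 0.00405 with DESeq2, 0.18 with voom, 0.023 with the replicate block within genotype, 0.021 in lysates 2 and 3 and 0.051 in 1, 5 and 7. In lysates 2 and 3 alone the chic difference was −0.052, the nito difference 0.028 and the Mettl14 difference 0.080, and in 1, 5 and 7 alone the Flacc difference was −0.034 the Mettl3 difference 0.052 and the CG13073 difference 0.020. The spread differed by −0.00822 over genes whose mean log2 CPM reached 6 and by −0.0104 as interquartile range. Leaving out 1 library or lysate gave −0.017 to 0.29 for the CG31676 difference, −0.15 to 0.53 for Flacc, −0.31 to 0.23 for Hakai, −0.38 to 0.017 for Mettl14, −0.33 to 0.069 for Mettl3, −0.019 to 0.45 for the Pde1c difference, −0.038 to 0.25 for the Pde6 difference, −0.041 to 0.21 for the Pde8 difference, −0.30 to 0.28 for Ythdc1, −0.013 to 0.31 for the futsch difference, −0.22 to 0.065 for nito and −0.0575 to 0.0697 for the spread of enrichment over genes per lysate. None of these passed. The median of all genes was between −0.04 and 0.01 under the 3 scalings.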
